A study of Mus musculus with 14 samples.

Results

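Negative cells were compared with Sublow cells, the dimmest and the next dimmest of the fluorescence gates drawn on the small intestinal epithelium of Sox9eGFP mice. The comparison takes in 6 of the 14 small RNA libraries of the series, 3 for each gate, chosen by the gate named in their labels. All 6 come from small intestine of strain C57BL/6J and carry the same Sox9eGFP reporter, so the groups differ in the gate and share genotype, strain and tissue. In this mouse the regulatory sequence of the Sox9 gene drives a green fluorescent protein. Cells of the Sublow gate are known as transit-amplifying progenitors, the dividing cells that lie between stem cells and mature cells, and cells of the Negative gate as the differentiated lineages. The labels give no age, no number of pooled animals and no word on whether each library is a separate animal, so p-values measure the spread between these libraries, which may be technical. Messenger RNA was not measured, and the gates therefore could not be checked against Sox9 or the reporter itself.

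MicroRNAs (miRNAs) are short RNAs that guide Argonaute proteins to messenger RNAs and lower the output of their targets. Pairing rests mainly on the seed, bases 2 to 8 from the 5′ end, so miRNAs with the same seed share many predicted targets. Each hairpin precursor can give a mature strand from its 5′ arm (5p) and one from its 3′ arm (3p), and neighbouring hairpins are often cut from one transcript. In the gut, miR-192, miR-194 and miR-215 are abundant in absorptive enterocytes, and their genes are known targets of the HNF transcription factors, while miR-375 and miR-7 are known from endocrine cells.

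The sequences below carry the main contrasts that follow. They are mature miRNAs from RefSeq (GRCm38.p6), written 5′ to 3′ with the seed in capitals, and 224 of the 275 tested entries at the annotated start had such a sequence. The first group holds miR-215 and its seed partner miR-192, then the miR-194 strands and miR-22, which were higher in Negative cells apart from miR-192-5p and miR-194-2-3p.
miR-215-5p: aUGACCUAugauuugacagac
miR-192-5p: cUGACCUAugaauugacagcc
miR-215-3p: uCUGUCAUucuguaggccaau
miR-194-5p: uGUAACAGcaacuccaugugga
miR-194-1-3p: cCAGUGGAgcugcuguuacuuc
miR-194-2-3p: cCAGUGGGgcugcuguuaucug
miR-22-3p: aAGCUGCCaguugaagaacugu
Counted from 1 at the 5′ end, miR-192-5p and miR-215-5p differ by C1A, A12U and C20A, all outside the seed.

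The next sequences were lower in Negative cells or are a seed partner of one that was. They are shown by family because members with an identical seed differed widely in the size of their change.
miR-7a-5p: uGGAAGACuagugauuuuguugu
miR-7b-5p: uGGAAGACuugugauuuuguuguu
miR-184-3p: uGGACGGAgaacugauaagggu
miR-148a-3p: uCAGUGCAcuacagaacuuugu
miR-148b-3p: uCAGUGCAucacagaacuuugu
miR-152-3p: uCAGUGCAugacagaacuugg
let-7b-5p: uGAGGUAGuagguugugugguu
let-7e-5p: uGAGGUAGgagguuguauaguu
miR-125a-5p: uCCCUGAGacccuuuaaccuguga
miR-99b-5p: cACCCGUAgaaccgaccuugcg
miR-25-3p: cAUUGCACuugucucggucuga
miR-92a-3p: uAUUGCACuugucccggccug
miR-92b-3p: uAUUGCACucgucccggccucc
miR-221-3p: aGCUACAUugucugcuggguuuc
miR-222-3p: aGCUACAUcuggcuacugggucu
miR-181a-5p: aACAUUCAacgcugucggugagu
miR-181d-5p: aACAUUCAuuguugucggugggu
Over their shared length miR-7a-5p and miR-7b-5p differ by A10U alone. From miR-148a-3p, miR-148b-3p differs by C9U and U10C, and miR-152-3p by C9U, U10G and U20G. From let-7b-5p, let-7e-5p differs by U9G, G17A and G19A, and from miR-181a-5p, miR-181d-5p differs by A9U, C10U, C12U and A21G.

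Levels are RPM, reads scaled so that the miRNA entries of each library sum to 1e+06, and a value is thus a share of the miRNA pool. Fold changes in log2 are on log2(RPM + 1), as Negative minus Sublow, with the standard error (SE) from a limma fit across the series. An entry was called higher or lower where the Benjamini-Hochberg adjusted p over the 588 tested entries was under 0.05. The table lists a read that starts away from the annotated position as a separate entry with a signed suffix, written here as shifted, and 313 of the 588 tested entries are of this kind. Since the samples are bulk RNA, fewer cells of a type and less RNA per cell cannot be told apart.

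The 6 libraries fall into a pair of sequencing lanes named in their labels, each with both gates. Negative 1, Negative 2 and Sublow 2 were on lane L006, at an estimated depth of 4.52 to 5.11 M reads (M, 1e+06). Negative 3, Sublow 1 and Sublow 3 were on lane L005, at 13.2 to 16.4 M reads. The 3 lane L006 libraries stood apart in holding the miR-290 cluster, known from embryonic stem cells, at 0.271 to 0.338% of their reads when summed with miR-302d. The lane L005 libraries listed these miRNAs at 0. Elsewhere in the series they were listed in High 2 (0.359%) and Low 2 (0.16%), both labelled Combo in place of a lane. Non-sorted 1 (0.288%) and Non-sorted 2 (0.255%), on lane L006, held them too. All lane L006 libraries and all replicate 2 libraries thus held these miRNAs, and their source was not tested. In all, 17 tested entries had at least 10 RPM in each lane L006 library and 0 in each lane L005 library, and 2 (miR-142-5p and miR-150-5p) showed the reverse. None of these 19 entries was called by limma (adjusted p under 0.05). Entries at 0 in only part of a gate have a wide spread (SE 3.70 for miR-295-3p), which made a call unlikely. The absence of calls here therefore cannot show whether the lane enters other calls. With the lane as a model term limma called 203 entries, 55 higher and 148 lower in Negative cells. Within lanes L005 and L006 the log2 differences were 0.43 and 0.55 for miR-215-5p, and -3.62 and -4.73 for miR-375-3p.

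**Figure D1:**
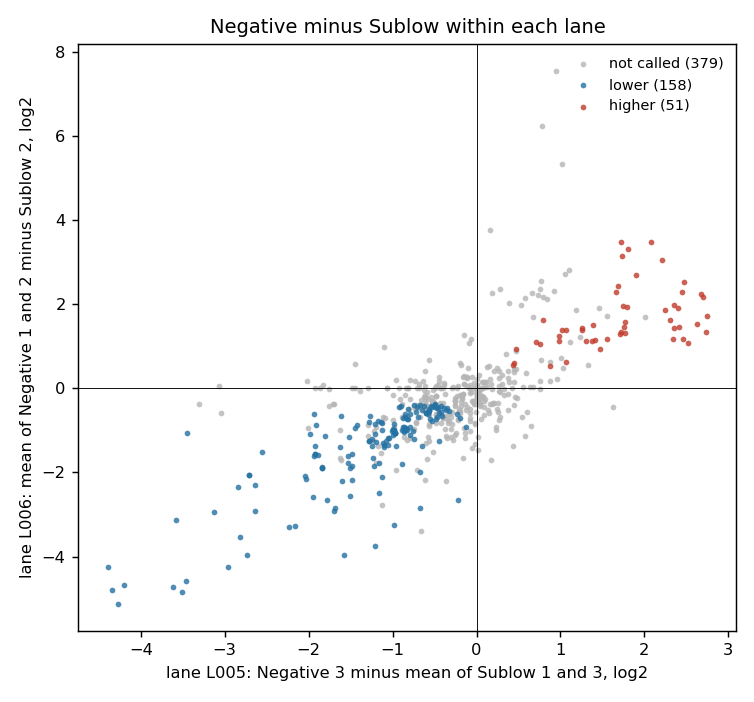
Difference of Negative minus Sublow within lane L005 (x axis) and within lane L006 (y axis), both on log2(RPM + 1), with 1 point for each of the 588 tested entries. All 51 higher entries (red) lie in the upper right quadrant and all 158 lower entries (blue) in the lower left one. The calls were made on these same libraries, so the quadrants are a description and not a check.

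miR-215 and miR-194 took a larger share of the miRNA pool in Negative than in Sublow cells. Entries of both names, annotated and shifted, together made up 49.8% ± 0.077 (SD, n = 3 libraries) of the Negative pool and 32.1% ± 2.23 (SD, n = 3) of the Sublow pool. Fewer names were higher in Negative than lower. Of the 588 tested entries 209 were called (35.5%), 51 higher in Negative (8.67%) and 158 lower (26.9%). Among the 275 entries at the annotated start, 108 were called (39.3%), 9 higher (3.27%) and 99 lower (36%), which corresponds to 8 mature names higher and 88 lower. The library values of 301 entries (51.2%) did not overlap between the gates, with Negative higher in 77 (13.1%) and lower in 224 (38.1%), including 203 of the 209 called entries.

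This imbalance of directions depended on the total used for scaling. The median log2 difference of all tested entries was -0.37, and rescaling the libraries to their median ratio moved differences up by 0 to 0.48, least in entries near 0, and the median to near 0, a shift of 0.37. After that rescaling 143 entries were called (24.3%), 75 higher (12.8%) and 68 lower (11.6%), so that 52.4% of the calls were higher in place of 24.4%. Scaling to the total without miR-215 and miR-194 gave 63 higher and 77 lower calls, and quantile normalization gave 54 and 96. All 51 higher calls remained after median-ratio rescaling, as did 68 of the 158 lower ones. The value after median-ratio rescaling is therefore given beside the main one for some entries below. Entries without it also depend on the scaling, with differences moved up within the range given above. Among lower calls that were kept, let-7d-5p moved from -0.94 to -0.46, miR-25-3p from -1.42 to -0.95 and miR-146b-5p from -1.06 to -0.59. Among higher calls, miR-215-3p moved from 1.05 to 1.53.

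**Figure D2:**
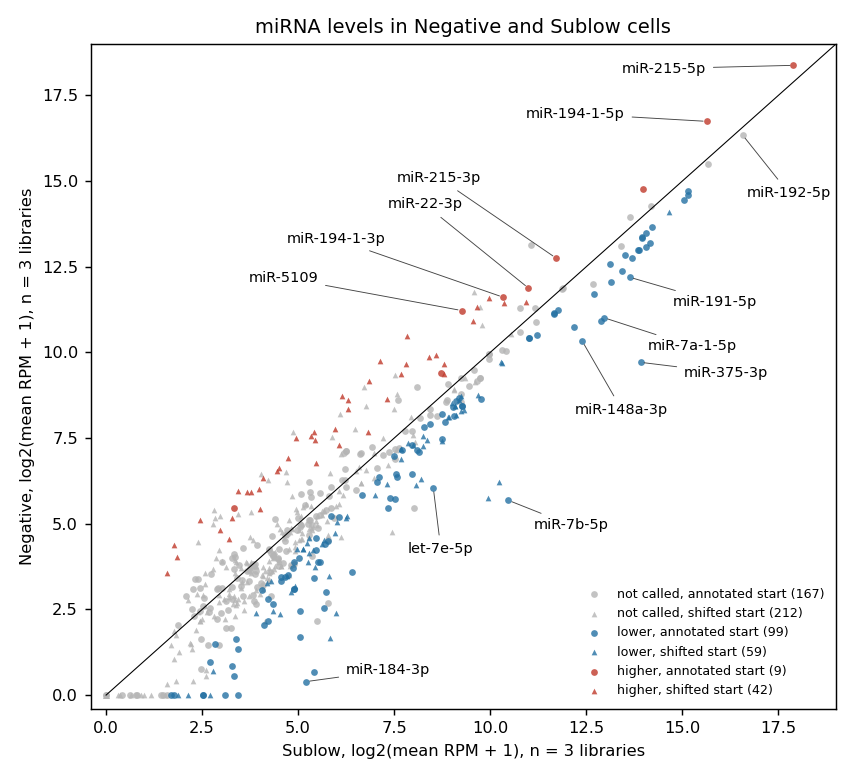
Mean level of each of the 588 tested entries in Sublow (x axis) and Negative cells (y axis), log2(mean RPM + 1) over 3 libraries each. Red points are higher and blue points lower in Negative cells, and the line marks equal levels. miR-215-5p and miR-194-1-5p lie above the line at the top of the range, and miR-375-3p and miR-7b-5p lie far below it.

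Among the HNF-linked miRNAs the entries of miR-215 and the miR-194-1 hairpin were higher, and those of miR-192 were not called. Of 7 tested members, 4 were higher in Negative cells, against 3.27% of all entries at the annotated start. None was lower and 3 were not called. The list's median log2 difference was 0.48, against -0.37 over all tested entries. After median-ratio rescaling 5 were higher. In quantile normalization, which fixes the top rank at one level, 3 were higher, 1 (miR-192-5p) was lower and miR-215-5p was not called. Their summed level was 393178 to 404000 RPM in Sublow and 540753 to 544799 RPM in Negative libraries, so the enterocyte miRNAs of the labelled tissue were present in both gates.

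miR-215-5p was the most abundant entry in both gates. It stood at 252329, 233630 and 244368 RPM in Sublow 1 to 3 and at 345077, 341051 and 335102 RPM in Negative 1 to 3. Every Negative library lay above every Sublow library, and the libraries of a gate lay close together. The log2 difference was 0.48 (SE 0.12, adjusted p = 0.00721, limma), or 0.96 after median-ratio rescaling. Its opposite strand, miR-215-3p, a minor product of the same hairpin, read 3764, 3214 and 3055 RPM in Sublow and 7253, 6829 and 6675 RPM in Negative libraries. The groups did not overlap, and the strand was 2.07-fold higher in Negative cells (log2 1.05, SE 0.11, adjusted p = 1.76e-05, limma).

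miR-194-5p is cut from 2 hairpins with the same mature strand, one beside miR-215 and one beside miR-192. The entry of the first, miR-194-1-5p, read 59428, 41427 and 51765 RPM in Sublow and 105883, 110365 and 112607 RPM in Negative libraries. It was 2.15-fold higher in Negative cells with no overlap (log2 1.12, SE 0.14, adjusted p = 7.84e-05, limma). The entry of the second, miR-194-2-5p, had a log2 difference of 0.80 (SE 0.16, adjusted p = 0.00208). How reads of the shared strand were divided between the hairpins is not given in the sources used here, so these entries are uncertain as separate products. The 3p strands do differ in sequence, as shown above. The strand of the hairpin beside miR-215, miR-194-1-3p, read 1333, 1473 and 1053 RPM in Sublow and 3191, 3268 and 2932 RPM in Negative libraries, and rose by 1.29 in log2 (SE 0.22, adjusted p = 6.3e-04). The strand of the hairpin beside miR-192, miR-194-2-3p, read 360, 604 and 479 RPM in Sublow and 426, 611 and 580 RPM in Negative libraries. Those groups overlapped, and the log2 difference of 0.18 was not called (adjusted p = 0.586), although it was after median-ratio rescaling (0.66, adjusted p = 0.0459).

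miR-192-5p, which has the seed of miR-215-5p, was not called. It read 86744, 112808 and 93075 RPM in Sublow and 82704, 82655 and 82816 RPM in Negative libraries. The Negative libraries were nearly equal and lay just below all 3 Sublow libraries, with a log2 difference of -0.23 (SE 0.13, adjusted p = 0.214, limma). Median-ratio rescaling moved it to 0.25 (adjusted p = 0.241). Together the 2 miRNAs of this seed summed to 340985 ± 4793 RPM in Sublow and 423135 ± 4956 RPM in Negative cells (SD, n = 3 libraries each).

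The remaining higher entries at the annotated start were few. miR-22-3p, a miRNA of many tissues, read 1927, 2406 and 1761 RPM in Sublow and 3529, 3929 and 3863 RPM in Negative libraries, a 1.86-fold difference with no overlap (log2 0.90, SE 0.15, adjusted p = 5.01e-04, limma). miR-1981-5p read 367, 448 and 449 RPM in Sublow and 645, 648 and 744 RPM in Negative libraries. Its log2 difference of 0.69 (SE 0.22) had an adjusted p of 0.0307, which rose to between 0.0547 and 0.104 in 5 of the 6 fits that left out a library (each library except Sublow 2). miR-22-3p was the 1 called member of the 4 differentiation-linked miRNAs, whose median log2 difference was 0.31. The others were miR-203-3p, known from keratinocyte differentiation (0.54, adjusted p = 0.0738), miR-378-3p (0.08, adjusted p = 0.707) and miR-802-5p (0.06, adjusted p = 0.915). After median-ratio rescaling 3 of the 4 were higher, with miR-203-3p at 1.02 (adjusted p = 0.00172) and miR-378-3p at 0.56 (adjusted p = 0.00406).

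Most higher calls by number were start positions of 3 names outside these lists. Of the 51 higher entries, 16 belong to miR-5105, 11 to miR-5109 and 6 to miR-5102, 16 to miR-194 and miR-215, and the other 2 are miR-22-3p and miR-1981-5p. The table lists 17, 17 and 13 start positions for miR-5105, miR-5109 and miR-5102, spread to either side of the annotated one. For miR-5109 at the annotated start the values were 637, 675 and 516 RPM in Sublow and 2231, 2940 and 1993 RPM in Negative libraries, a 3.92-fold difference (log2 1.96, SE 0.24, adjusted p = 7.84e-05, limma). miR-5105 shifted by +6 read 261, 273 and 143 RPM in Sublow and 1805, 1386 and 1081 RPM in Negative libraries. It exceeded the annotated miR-5105 entry, which read 3.97, 15.8 and 7.27 RPM in Sublow and 33.4, 61.5 and 33.1 RPM in Negative libraries. miR-5115, with 15 start positions, had none called: its annotated entry read 3131, 2482 and 835 RPM in Sublow and 16889, 7308 and 2803 RPM in Negative libraries (log2 1.91, SE 1.09, adjusted p = 0.206). All entries of these 4 names summed to 1.33, 1.26 and 0.646% of the pool in Sublow 1 to 3 and 5.54, 3.80 and 2.28% in Negative 1 to 3. In both gates this share was highest in replicate 1 and lowest in replicate 3. miR-5105 and miR-5109 had no mature sequence in the RefSeq set used here. Whether entries of these 4 names are products of miRNA hairpins was not tested.

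The largest decreases were in the enteroendocrine and neuroendocrine list. Of 10 listed members, 8 were tested and 7 were lower in Negative cells, against 36% of all entries at the annotated start. The list's median log2 difference was -2.37, against -0.37 over all tested entries. After median-ratio rescaling 7 were still lower, with a median of -2.06, and in quantile normalization 6. The summed level of the list was 34458 to 35294 RPM in Sublow and 7057 to 8408 RPM in Negative libraries. The list was drawn up with earlier results of these libraries known and is not independent evidence of its direction.

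miR-375-3p, known from pancreatic islet and gut endocrine cells, read 14530, 18384 and 13326 RPM in Sublow and 657, 724 and 1130 RPM in Negative libraries. No library overlapped, and the mean was 18.4-fold lower in Negative cells (log2 -4.23, SE 0.23, adjusted p = 3.72e-07, limma). Its entries shifted by +1 and -1 had log2 differences of -4.24 and -4.08. miR-7b-5p, a miRNA of neuroendocrine tissue, read 1754, 1028 and 1484 RPM in Sublow and 40.7, 31.8 and 78.4 RPM in Negative libraries. It was 28.3-fold lower (log2 -4.86, SE 0.33, adjusted p = 9.27e-07, limma). miR-7a-1-5p, which carries the same seed, read 9304, 5551 and 9193 RPM in Sublow and 1956, 1795 and 2426 RPM in Negative libraries, a 3.89-fold difference (log2 -1.93, SE 0.26, adjusted p = 1.55e-04). Among the Negative libraries, replicate 3 had the highest value for each of these 3 miRNAs.

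miR-184-3p and miR-1224-5p reached the listing limit in Negative cells. miR-184-3p read 41.4, 34.0 and 32.4 RPM in Sublow and was listed at 0, 0 and 0.94 RPM in Negative libraries (log2 -4.88, SE 0.30, adjusted p = 3.91e-07, limma). miR-1224-5p read 6.26, 14.7 and 6.30 RPM in Sublow and 0, 0 and 1.44 RPM in Negative libraries (log2 -2.80, adjusted p = 4.44e-04). A value of 0 means fewer than about 10 reads, equal to 0.62 to 2.41 RPM in these libraries, so no fold is given. The sensory miRNAs miR-182-5p and miR-183-5p, neighbours in one cluster, fell less. miR-182-5p read 8342, 9498 and 9489 RPM in Sublow and 4030, 4363 and 4307 RPM in Negative libraries (log2 -1.10, SE 0.10, adjusted p = 6.81e-06), and miR-183-5p had a log2 difference of -1.11 (SE 0.11, adjusted p = 1.61e-05). miR-153-3p was not called (log2 -1.24, adjusted p = 0.179).

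**Figure D3:**
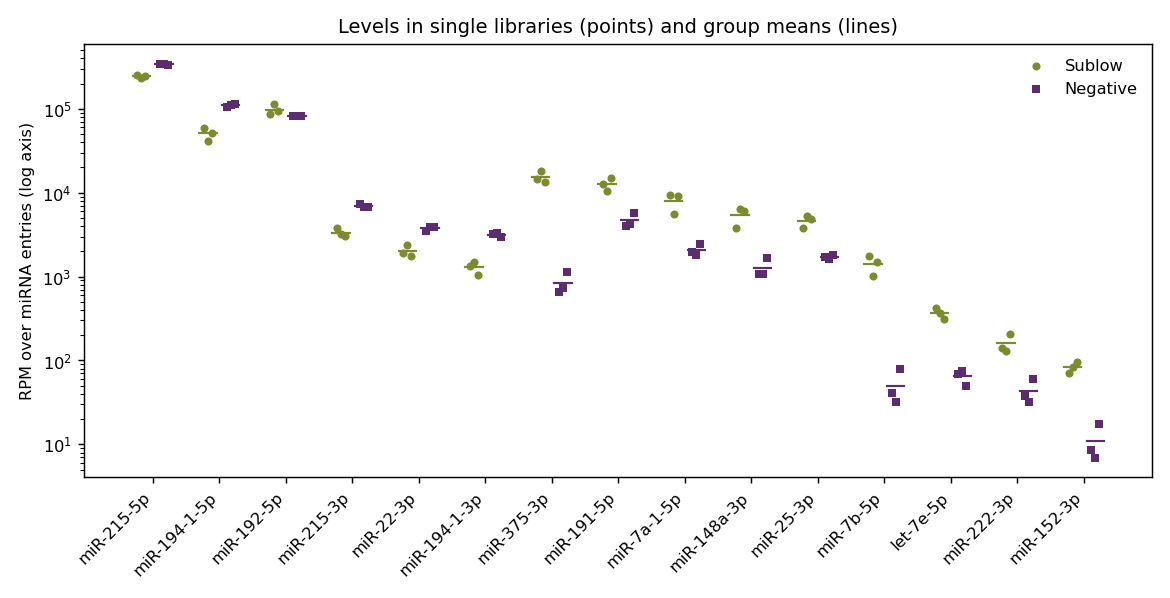
Level of 15 miRNAs in each Sublow library (green circles) and Negative library (purple squares), in RPM on a log axis, with the group mean as a short line (n = 3 libraries each). The groups do not overlap for any of the 15, but most of these were named by a rule that requires no overlap. Of all 588 tested entries 51.2% did not overlap. miR-7b-5p shows the widest gap, from 1028 to 1754 RPM in Sublow to 31.8 to 78.4 RPM in Negative cells.

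The let-7 family, which is linked to the exit from the progenitor state in many tissues, was lower in Negative cells. Of 9 tested members with miR-98, 8 were lower, against 36% of all entries at the annotated start, and let-7b-5p was not called. The family's median log2 difference was -0.88, against -0.37 over all tested entries. After median-ratio rescaling 5 were lower with a median of -0.40, and in quantile normalization 4. The summed level was 160015 to 178199 RPM in Sublow and 112323 to 116742 RPM in Negative libraries. let-7b-5p, the most abundant member, read 53300.0, 55886 and 46405 RPM in Sublow and 44365, 46370.5 and 48094 RPM in Negative libraries, which overlapped (log2 -0.16, adjusted p = 0.432, limma). let-7d-5p read 13242, 13749 and 12750 RPM in Sublow and 6719, 7009 and 7021 RPM in Negative libraries, a 1.92-fold difference with a narrow spread (log2 -0.94, SE 0.07, adjusted p = 1.87e-06).

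let-7e-5p fell furthest in this family, together with the neighbours of its gene. It read 418, 370 and 310 RPM in Sublow and 68.4, 75.9 and 49.5 RPM in Negative libraries, 5.66-fold lower (log2 -2.49, SE 0.22, adjusted p = 7.27e-06, limma). miR-125a-5p, cut from the same cluster and a mammalian relative of lin-4, read 42.5, 25.2 and 28.6 RPM in Sublow and 4.11, 4.48 and 4.75 RPM in Negative libraries (log2 -2.57, SE 0.26, adjusted p = 1.42e-05). The third member, miR-99b-5p, read 57.9, 40.2 and 41.4 RPM in Sublow and 18.8, 18.9 and 3.56 RPM in Negative libraries (log2 -1.95, SE 0.47, adjusted p = 0.00626). All 3 were also lower after median-ratio rescaling and in quantile normalization.

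Members of the miR-148 and miR-152 family, which share a seed and are known to repress the DNA methyltransferase DNMT1, differed in the size of their fall. miR-148a-3p read 3799, 6312 and 6087 RPM in Sublow and 1082, 1064 and 1688 RPM in Negative libraries, 4.22-fold lower (log2 -2.08, SE 0.22, adjusted p = 2.46e-05, limma). miR-152-3p read 70.7, 83.8 and 95.6 RPM in Sublow and 8.61, 6.92 and 17.6 RPM in Negative libraries, 7.54-fold lower (log2 -2.90, SE 0.44, adjusted p = 3.62e-04). miR-148b-3p read 535, 578 and 624 RPM in Sublow and 372, 341 and 505 RPM in Negative libraries. Its groups did not overlap, and the log2 difference was -0.53 (SE 0.14, adjusted p = 0.0102). That call was lost after median-ratio rescaling (-0.05, adjusted p = 0.848) and without Negative 2 (adjusted p = 0.0529). All 3 members were called lower at the deposited scale, against 36% of all entries at the annotated start. After median-ratio rescaling 2 of the 3 were called. The differences between members of a family were not tested.

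Among the miR-17-92 cluster and its paralogs, known from proliferating cells, 12 of 13 members were tested, 2 were lower and 10 were not called. The share of lower members was under the 36% of all entries at the annotated start. The median log2 difference was -0.28, close to -0.37 over all tested entries. miR-25-3p, of the miR-106b cluster, read 3820, 5250 and 4839 RPM in Sublow and 1713, 1606 and 1821 RPM in Negative libraries (log2 -1.42, SE 0.13, adjusted p = 9.75e-06, limma). miR-93-5p from the same cluster had a log2 difference of -0.55 (adjusted p = 0.00776) that was not called after median-ratio rescaling (-0.07, adjusted p = 0.749). The third hairpin of that cluster gave 2 strands. Its more abundant one, miR-106b-3p, read 402, 506 and 440 RPM in Sublow and 234, 268 and 249 RPM in Negative libraries and was lower (log2 -0.84, SE 0.19, adjusted p = 0.00466), with the call lost after median-ratio rescaling (-0.36, adjusted p = 0.208). The strand on the list, miR-106b-5p, read 47.9, 76.3 and 48.0 RPM in Sublow and 78.2, 80.1 and 40.8 RPM in Negative libraries (log2 0.18, adjusted p = 0.80). miR-92a-1-3p, with the seed of miR-25-3p, read 6001, 6549 and 7082 RPM in Sublow and 3449, 3902 and 4844 RPM in Negative libraries and missed the threshold (log2 -0.70, SE 0.26, adjusted p = 0.0537). miR-92b-3p, encoded elsewhere with this seed, was lower (52.0 ± 6.16 RPM in Sublow and 6.98 ± 0.299 RPM in Negative cells, SD, n = 3; log2 -2.73, adjusted p = 1.27e-05).

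miR-221 and miR-222 are neighbours with one seed and known repressors of the cell-cycle inhibitor p27. miR-222-3p read 141, 131 and 206 RPM in Sublow and 37.4, 31.9 and 59.5 RPM in Negative libraries (log2 -1.89, SE 0.27, adjusted p = 2.22e-04, limma). miR-221-3p read 551, 447 and 581 RPM in Sublow and 288, 312 and 413 RPM in Negative libraries (log2 -0.65, SE 0.18, adjusted p = 0.0146). The miR-221-3p call was lost after median-ratio rescaling (-0.17, adjusted p = 0.573), and its adjusted p rose to 0.0553 to 0.0679 without Negative 1, Negative 2 or Sublow 3.

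In several other families 1 or 2 members lay well below the rest. In the miR-181 family, miR-181d-5p (373, 416 and 491 RPM in Sublow, 156, 195 and 175 RPM in Negative libraries) and miR-181c-5p were lower, at log2 -1.27 (adjusted p = 1.02e-04, limma) and -1.04 (adjusted p = 0.00544). miR-181a-1-5p stood at 982, 1125 and 918 RPM in Sublow and 959, 999 and 999 RPM in Negative libraries (log2 -0.03, adjusted p = 0.938), and was called higher after median-ratio rescaling (0.45, adjusted p = 0.0335). In the cluster of miR-191 and miR-425, miR-191-5p read 12663, 10611 and 14863 RPM in Sublow and 4024, 4245 and 5763 RPM in Negative libraries (log2 -1.45, SE 0.14, adjusted p = 1.27e-05). Its neighbour miR-425-5p had a log2 difference of -0.54 (adjusted p = 0.00796) that was not called after median-ratio rescaling (-0.06, adjusted p = 0.80). Of the miR-200 family, which maintains epithelial identity, 2 of 5 members were lower, a share near the 36% of all entries at the annotated start: miR-200b-3p (log2 -1.01, adjusted p = 2.07e-04) and miR-200c-3p (-0.58, adjusted p = 2.01e-04). The miR-200c-3p call was lost after median-ratio rescaling (-0.10, adjusted p = 0.435) and its value turned to 0.03 in quantile normalization (adjusted p = 0.891).

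**Figure D4:**
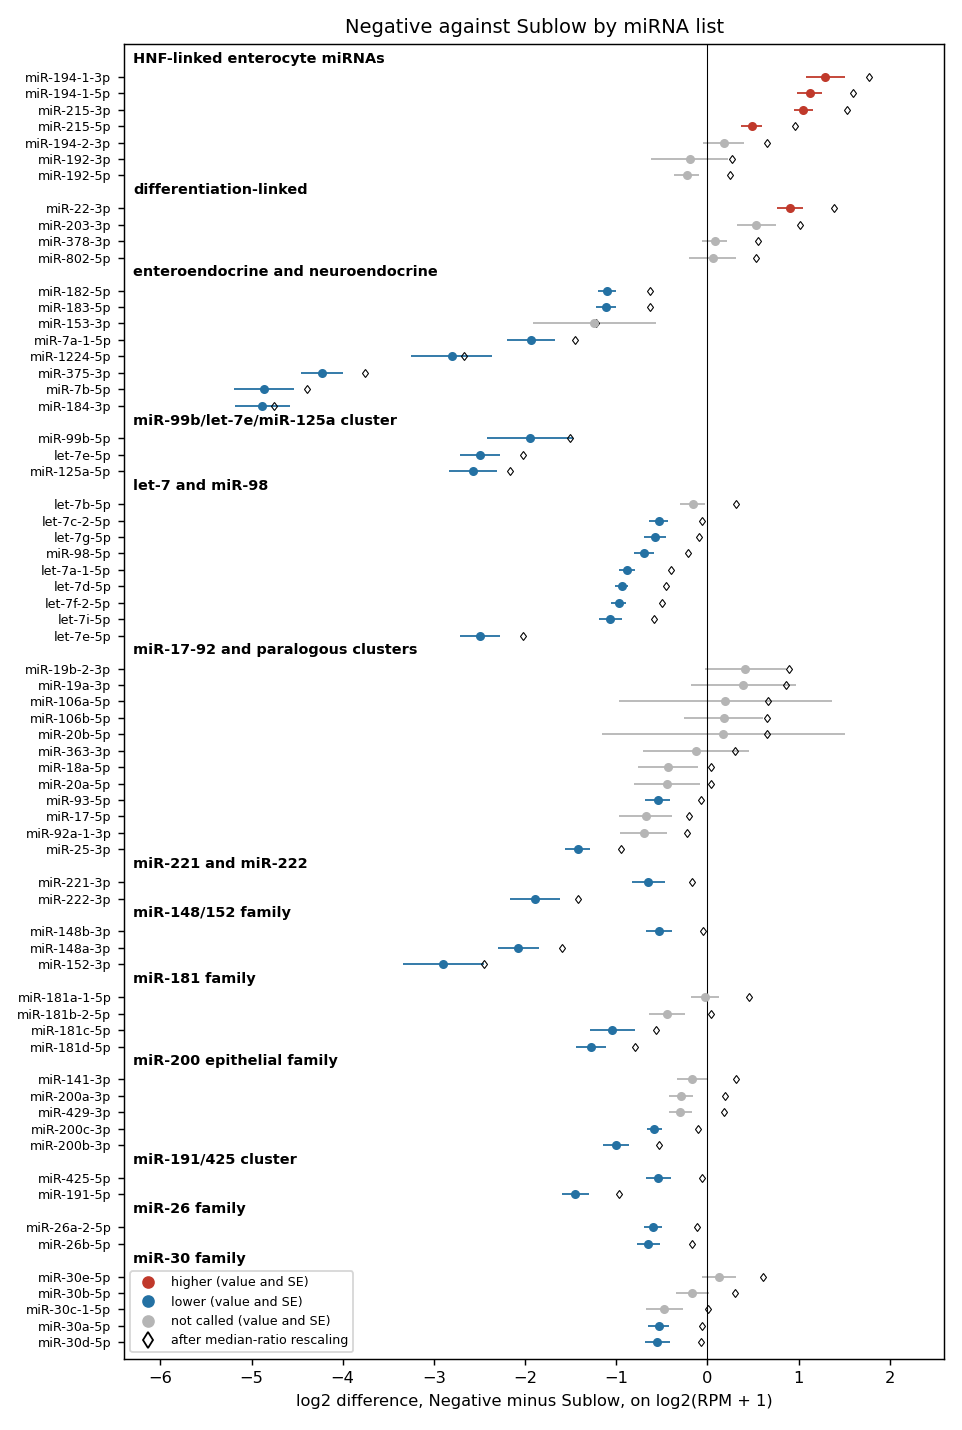
Log2 difference of Negative minus Sublow for the tested members of 13 miRNA lists, with bars of 1 SE, red where higher, blue where lower and grey where not called. Open diamonds give the value after median-ratio rescaling. The enteroendocrine list reaches from -1.10 to -4.88, while called members of the miR-26 and miR-30 families lie between -0.53 and -0.65 and near 0 after rescaling.

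For several abundant miRNAs the call depended on the scaling. Both tested miR-26 members and 2 of 5 miR-30 members were lower, the latter again near the 36% background (log2 -0.60 and -0.65 for miR-26a-2-5p and miR-26b-5p, -0.53 and -0.55 for miR-30a-5p and miR-30d-5p), and none of these 4 was lower after median-ratio rescaling. In quantile normalization miR-26a-2-5p, miR-26b-5p and miR-30d-5p turned to the positive side without a call. miR-21-5p, an abundant miRNA of injured and proliferating epithelium, read 33201, 37997 and 37996 RPM in Sublow and 23179, 27102 and 30176 RPM in Negative libraries. Its call (log2 -0.45, SE 0.15, adjusted p = 0.0348, limma) was lost after median-ratio rescaling, where the value was 0.03 (adjusted p = 0.904), and without Negative 1, Negative 2, Sublow 2 or Sublow 3 (adjusted p 0.0730 to 0.147). It was the 1 called member of the 4 stem cell and regeneration linked miRNAs. Of the others, miR-31-5p read 13534, 12174 and 12386 RPM in Sublow and 15794, 16571 and 15002 RPM in Negative libraries (log2 0.31, adjusted p = 0.114), and was higher after median-ratio rescaling (0.79, adjusted p = 4.73e-04).

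In the smaller families, 1 of 5 tested miR-15/16 members was lower (miR-16-2-5p, log2 -0.58, adjusted p = 0.00835), and 2 of 5 in the miR-23/27/24 clusters, also near 36% (miR-23b-3p, -1.17, adjusted p = 0.00174, and miR-24-2-3p, -0.83, adjusted p = 6.3e-04). None of these 3 calls remained after median-ratio rescaling. No tested member of the miR-29 family (2) or the miR-103 and miR-107 family (2) was called, and miR-103-2-3p was higher after median-ratio rescaling (0.46, adjusted p = 0.0341). Outside the lists, miR-744-5p was among the larger decreases. It read 138, 402 and 205 RPM in Sublow and 82.0, 104 and 76.2 RPM in Negative libraries (log2 -1.37, SE 0.32, adjusted p = 0.00501, limma), with adjusted p = 0.0602 after median-ratio rescaling.

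The Hox-cluster miRNAs, whose genes lie among the homeobox genes that pattern the body axis, differed between libraries of one gate. miR-10b-5p was lower (191, 128 and 226 RPM in Sublow, 35.0, 68.0 and 53.7 RPM in Negative libraries; log2 -1.79, SE 0.26, adjusted p = 2.28e-04, limma). miR-10a-5p, with the same seed, read 23.7, 20.7 and 729 RPM in Sublow 1 to 3 and 7.04, 14.2 and 108 RPM in Negative 1 to 3. miR-196a-2-5p likewise read 0.66, 0 and 160 RPM in Sublow and 0, 0 and 16.2 RPM in Negative libraries. Both were high in the replicate 3 library of each gate and were not called (adjusted p = 0.456 and 0.70).

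Some entries were listed in all 3 Sublow libraries and at 0 in all 3 Negative libraries. There were 9 such entries among the lower calls, 6 of them at the annotated start: miR-125a-3p, miR-99b-3p, miR-129-1-5p, miR-129-2-5p, miR-212-3p and miR-455-3p. miR-99b-3p and miR-125a-3p are the opposite strands of members of the let-7e cluster described above. miR-129-1-5p and miR-129-2-5p carry one mature sequence and are not separate evidence. No higher call was at 0 in all Sublow libraries. Of all 588 tested entries, 42 were at 0 in all Negative libraries and 19 in all Sublow libraries. The smallest listed values were 1.99, 2.10 and 0.65 RPM in Negative 1 to 3 and 0.62, 2.41 and 0.77 RPM in Sublow 1 to 3. miR-125a-3p read 2.01, 3.53 and 1.59 RPM in Sublow libraries, near these limits. A value of 0 is therefore not evidence of absence, and these counts partly follow the depth.

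Lists for other cell types held members at 0 in all 6 libraries beside members that were listed. In the haematopoietic list 5 of 7 members were tested, 2 were lower and none higher. These shares are near the 36% lower and 3.27% higher of all entries at the annotated start. The summed level was 276 to 632 RPM in Sublow and 128 to 289 RPM in Negative libraries. The strands of the leukocyte hairpin miR-142 differed: miR-142-3p was at 0 in all 6 libraries, while miR-142-5p read 14.04, 0 and 27.9 RPM in Sublow and 0, 0 and 16 RPM in Negative libraries. Its entry shifted by -2 was listed in all 6, at 82.2, 7.95 and 116 RPM in Sublow and 2.54, 3.05 and 65.5 RPM in Negative libraries. The lymphocyte miRNA miR-150-5p read 33.9, 0 and 52.0 RPM in Sublow and 0, 0 and 39.4 RPM in Negative libraries, and the myeloid miR-223-3p was at most 0.99 RPM. The miR-142 and miR-150 values were highest in the 3 lane L005 libraries, and none of these entries was called. Their part in other differences was not tested. The 2 lower members were miR-146a-5p and miR-146b-5p, which are induced by inflammatory signals. miR-146a-5p read 135, 103 and 265 RPM in Sublow and 26.7, 30.9 and 102 RPM in Negative libraries (log2 -1.79, SE 0.48, adjusted p = 0.011, limma). Its call was lost without Negative 1 (adjusted p = 0.0515), without Sublow 3 (0.0547) and after median-ratio rescaling (0.0672). miR-146b-5p had a log2 difference of -1.06 (adjusted p = 1.18e-04).

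In the mesenchymal and smooth muscle list 3 of 8 members were tested. miR-1a-2-3p was lower (21.8, 32.2 and 32.3 RPM in Sublow, 7.14, 8.85 and 6.69 RPM in Negative libraries; log2 -1.78, adjusted p = 8.01e-04, limma). miR-143-3p read 13.8, 25.8 and 16.2 RPM in Sublow and 22.5, 17.9 and 9.44 RPM in Negative libraries and was not called (adjusted p = 0.862). miR-145-5p, miR-125b-2-5p and miR-100-5p were at 0 in all 6 libraries, and the list summed to 47.3 to 73.6 RPM in Sublow and 19.4 to 34.5 RPM in Negative libraries. Of the erythroid list miR-451 and miR-144-3p were at 0 in all 6 libraries, and miR-486-5p read 16.5, 9.72 and 27.7 RPM in Sublow and 9.88, 9.97 and 33.9 RPM in Negative libraries. Of the endothelial list miR-126-3p was at 0 in all 6, and its opposite strand miR-126-5p read 0.98, 5.96 and 1.14 RPM in Sublow and 5.09, 3.46 and 0.81 RPM in Negative libraries. Neither miR-486-5p nor miR-126-5p was called. The 8 tested members of the miR-290 and miR-302 list and the 8 tested members of the Dlk1-Dio3 cluster had no call, and the part of the lane L006 libraries' miR-290 reads in other differences was not tested. With only the 7 libraries of the series that do not list miR-295-3p, which leaves 1 Negative and 2 Sublow libraries, 86 entries were called, 17 higher and 69 lower. With a model term for its presence, 53 were higher and 159 lower.

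Calls were also counted by seed family, at the deposited scale. Among mature names with RefSeq sequences, 32 seeds were shared by more than 1 tested name, over 87 names. Of these seeds 22 held at least 1 lower member, 1 (UGACCUA, of miR-192-5p and miR-215-5p) a higher one, and none both. Since 3.27% of all entries at the annotated start were higher and 36% lower, only that seed could have held both. The count therefore cannot show whether members of a family change in one direction. In 6 seeds every member was lower, and in 16 lower members stood beside uncalled ones. After median-ratio rescaling the miR-181 seed ACAUUCA did hold both, with miR-181a-1-5p higher and miR-181d-5p lower. The summed level of the miR-7 seed GGAAGAC was 9438 ± 2483 RPM in Sublow and 2109 ± 353 RPM in Negative cells (SD, n = 3), and that of CAGUGCA, the seed of miR-148a and miR-152, was 6062 ± 1438 and 1695 ± 447 RPM.

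Calls were likewise counted, at the deposited scale, for hairpins that lie within 10 kb of each other in the RefSeq annotation of GRCm38.p6. There were 27 such groups with tested entries, of which 20 held a call. Higher calls were found in 2 of them, miR-194-1 with miR-215 and miR-194-2 with miR-192, lower calls in the other 18, and none held both directions. Only those 2 groups could have held both, so this count cannot show whether neighbouring hairpins change in one direction. All 4 entries of the miR-194-1 and miR-215 group were higher, at log2 0.48 to 1.29, while 1 of 4 entries of the miR-194-2 and miR-192 group was. That entry, miR-194-2-5p, has the same mature sequence as miR-194-1-5p, so the higher call cannot be assigned to the miR-194-2 and miR-192 group. The strand specific to its hairpin, miR-194-2-3p, and both miR-192 strands were not called.

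The step from Sublow to Negative was then set against the step from Low to Sublow. Low is the next brighter gate, known to hold the crypt base stem cells, with 3 libraries of the same strain, tissue and reporter. The test asks, in one contrast, whether the log2 difference of Negative minus Sublow departs from that of Sublow minus Low. Of 588 entries 27 differed (4.59%), 24 of them with a negative sign (4.08%) and 3 with a positive one (0.51%). These calls come from the fit without a lane term, and most were lost with one, as given below. A negative sign covers a smaller rise, a larger fall, or a rise followed by a fall.

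Of the 7 HNF-linked members 3 had a negative sign in this contrast, each with a smaller rise, and 4 were not called: miR-194-1-3p (adjusted p = 0.111), miR-194-2-3p, miR-192-5p and miR-192-3p. miR-215-5p stood at 49283, 43681 and 52462 RPM in Low libraries, so that its log2 difference was 2.33 from Low to Sublow and 0.48 from Sublow to Negative (difference of steps -1.85, SE 0.21, adjusted p = 8.99e-04, limma). For miR-215-3p, at 579, 561 and 578 RPM in Low libraries, the steps were 2.54 and 1.05 (adjusted p = 0.00165). For miR-194-1-5p, at 9731, 7178 and 8933 RPM in Low libraries, they were 2.56 and 1.12 (adjusted p = 0.0107).

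Of the 8 tested enteroendocrine members 3 had a negative sign, each with a larger fall, and 5 were not called. The 5 were miR-7a-1-5p (difference of steps -0.20), miR-182-5p (-0.54), miR-183-5p (-0.65), miR-153-3p (1.82) and miR-1224-5p (1.99). miR-375-3p read 71632, 53119 and 49474 RPM in Low libraries and fell by 1.91 from Low to Sublow and by 4.23 from Sublow to Negative (difference of steps -2.32, SE 0.40, adjusted p = 0.0111, limma). miR-7b-5p fell by 2.54 and by 4.86 (adjusted p = 0.047), and miR-184-3p by 2.61 and by 4.88 (adjusted p = 0.0314). In the let-7 list 3 of 9 members had a negative sign. let-7d-5p had log2 differences of -0.31 and -0.94 (adjusted p = 0.0153), with similar values for let-7f-2-5p (-0.22 and -0.97, adjusted p = 0.0153).

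A peak in Sublow cells was seen for miR-210-3p, a miRNA induced by low oxygen. It read 10.4, 15.1 and 17.1 RPM in Low, 34.9, 55.6 and 39.5 RPM in Sublow and 25.7, 24.4 and 18.2 RPM in Negative libraries (difference of steps -2.43, SE 0.43, adjusted p = 0.0113, limma). The mean log2 levels of miR-21-5p and miR-1a-2-3p also rose to Sublow and then fell. Their differences of steps were -1.01 and -2.11 (adjusted p = 0.0485 for each, limma). The positive sign belonged to miR-141-3p, its entry shifted by -1, and miR-27b-3p. miR-141-3p read 2744, 3241 and 2436 RPM in Low, 986, 1129 and 896 RPM in Sublow and 894, 848 and 926 RPM in Negative libraries (difference of steps 1.31, SE 0.29, adjusted p = 0.0246). miR-27b-3p had a log2 difference of -1.09 from Low to Sublow and of -0.20 from Sublow to Negative (adjusted p = 0.0246).

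The count of this test depended on the lane term and on single libraries. Low 1 was on lane L005, while Low 2 and Low 3 are labelled Combo in place of a lane. Lane and gate are thus partly confounded in this contrast, and the entries named above come from the fit without a lane term. The 27 calls fell to 4 with a lane term, to 4 without Sublow 3, to 12 without Sublow 1 and to 14 without Negative 1. After median-ratio rescaling 106 entries had an unadjusted p under 0.05 by limma, against 104 in the main fit. These unadjusted counts do not show whether the calls named above for this contrast remained after rescaling. With only libraries that do not list miR-295-3p limma gave 0 calls (109 entries at an unadjusted p under 0.05).

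**Figure D5:**
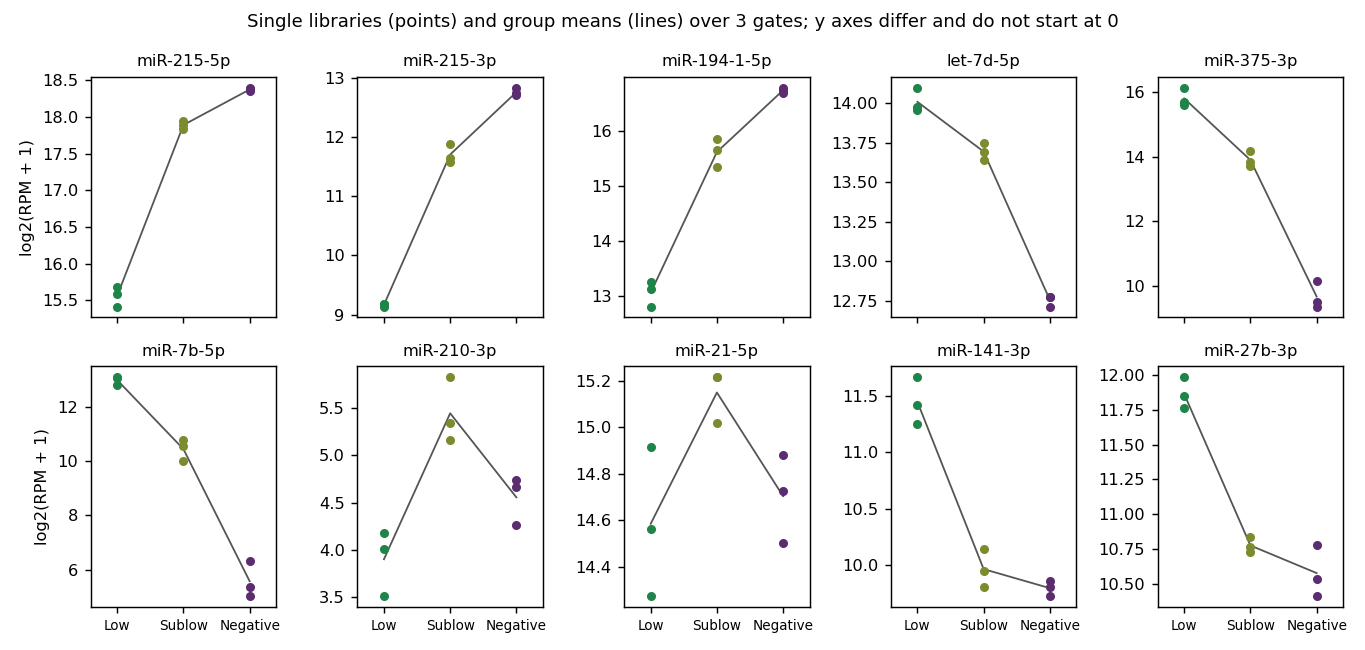
Level of 10 miRNAs in Low, Sublow and Negative libraries, as log2(RPM + 1), with 1 point per library (n = 3 per gate) and a line through the group means. The y axes differ and do not start at 0. miR-215-5p rises mostly before Sublow, miR-375-3p and miR-7b-5p fall mostly after it, and miR-141-3p falls before it, with overlapping Sublow and Negative libraries.

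Ratios of RPM within a library do not depend on its total, but the added pseudocount lets the total enter for low entries. The ratio of a shifted entry to the annotated entry of the same miRNA differed for 4 of 297 pairs (1.35%), all higher in Negative cells: miR-7a-2-3p shifted by +1, miR-375-3p shifted by -2, miR-7b-5p shifted by -1 and let-7e-5p shifted by -1. In the first 3 pairs the shifted entry was at 0 in every Negative library and at most 5.30 RPM in Sublow libraries, so these ratios rest on the pseudocount. For let-7e-5p shifted by -1 the values were 16.01, 10.9 and 15.1 RPM in Sublow and 6.91, 5.97 and 9.35 RPM in Negative libraries (log2 ratio change 1.66, SE 0.32, adjusted p = 0.0225, limma). With a pseudocount of 0.1, 0 pairs differed by limma (12 at an unadjusted p under 0.05), and with 10, 29 did. Without Negative 1 there was 1 call and without Sublow 1 there were 2.

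The ratio of the 5p to the 3p strand was called for 2 of 65 hairpins (3.08%), miR-7a-2 and miR-92b, and both calls rest on the pseudocount, so no size is given. miR-7a-2-3p read 49.2, 24.4 and 50.2 RPM in Sublow and 0, 0 and 1.75 RPM in Negative libraries. Its 5p strand has the same mature sequence as that of miR-7a-1, so reads of the 5p strand cannot be assigned to this hairpin. The 5p strand of miR-92b read 0.98, 0 and 1.21 RPM in Sublow and was at 0 in all Negative libraries. For miR-215, with both strands well above the listing limit, the strand ratio was not called (-0.57, SE 0.17, adjusted p = 0.152).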

How the data were processed

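Small RNA libraries were made with the TriLink CleanTag kit from total RNA, per the labels' protocols. The authors deposited one table of 2030 miRNA entries in 14 libraries, in RPM over miRNA entries (each library sums to 1e+06). Per the submitters' processing notes the build is mm9; no source used here names the aligner or how reads were counted. The header does not define the signed suffix of 1496 entries, which was read as a start shifted from the annotated position. Depth was estimated from the steps between low values: 4.52 to 16.4 M reads (M, 1e+06) in the 6 libraries compared, with 77.3 to 84.8% of low values within 0.1 read of a whole number. This was too few to recover counts, so no count test was run, and values under about 10 reads are listed as 0.

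Values were analysed as log2(RPM + 1), which understates fold changes of low entries. Entries with at least 10 RPM in at least 3 libraries were tested in R 4.3.3 with limma 3.58.1 (moderated by empirical Bayes, with a trend; 5 groups over 14 libraries, with 2 Non-sorted libraries and 3 in each other group), two-sided, with Benjamini-Hochberg adjustment and a threshold of 0.05. The same model gave the contrast of steps, the ratio of shifted to annotated entries and the ratio of strands. The text names the 12 entries at the annotated start that changed most in each direction, or all where fewer passed (called, mean of at least 100 RPM in the higher group, no overlap, 1 copy per name), up to 5 shifted ones, the 10 most abundant, the 5 smallest p of each other test, and members of 25 lists. The entries at 0 in all Negative libraries, miR-92b-3p and entries named for their part in a count were chosen after their values were seen. The comparison and the lists were chosen with earlier results of these data known. The scripts were tested on simulated data. Alternatives changed the pseudocount, filter, scaling, fitted groups, variance trend, replicate block, lane term and single libraries; fits without the libraries that list miR-295-3p, or with a term for it, were added after seeing the data.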

Additional observations from a re-analysis of the deposited data

How the results depend on the processing

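The 66 named called entries kept their direction and their call in 1137 of 1250 refits, lost the call in 108 and reversed in 5. After median-ratio rescaling 21 lost the call and miR-21-5p turned to 0.033. In quantile normalization 12 lost it, and miR-200c-3p turned to 0.033, miR-30d-5p to 0.23, miR-26a-2-5p to 0.091 and miR-26b-5p to 0.16. Among the 23 that kept the call in every refit were miR-375-3p, miR-7b-5p, miR-7a-1-5p, let-7e-5p, miR-25-3p, miR-191-5p, miR-194-1-5p, miR-194-1-3p and miR-22-3p.

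The count of lower entries was 68 after median-ratio rescaling, 96 in quantile normalization and 77 with the total taken without miR-215 and miR-194. With only the libraries that do not list miR-295-3p (1 Negative, 2 Sublow) it was 69, with 17 higher and 86 in all. Leaving out 1 library gave 42 to 50 higher calls and at least 179 in all. The contrast of steps gave 10 calls with no filter, 43 with a filter of 100 RPM, 4 with a lane term, 0 with only the libraries that do not list miR-295-3p, and 4 to 34 leaving out 1 library. The isoform ratio gave 0 with a pseudocount of 0.1, 29 with 10, 46 with no filter, 0 with a filter of 100 RPM, 11 with only the groups compared, 0 with only the libraries that do not list miR-295-3p, and 1 to 4 leaving out 1 library. The arm ratio gave 1, 7, 7, 1 and 0 with a pseudocount of 0.1, one of 10, no filter, only the groups compared and only the libraries that do not list miR-295-3p, and 1 to 2 leaving out 1 library. Where a count moved with a scaling or a pseudocount, the cause was not tested.

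With the replicate number as a block 228 entries were called, 63 higher and 165 lower, of which 204 were also called without it, and every named call was kept. Deviations of same-numbered libraries correlated at -0.35, 0.75 and 0.78 for replicates 1, 2 and 3. Not every library correlated best with its own number, and the main fit did not pair the samples. The replicate 1 libraries were on different lanes, while those of replicates 2 and 3 each shared a lane. Negative 1 correlated at 0.71 with Sublow 2 of its own lane. Number and lane are thus confounded, and these values cannot decide whether the numbers pair the samples. The labels give same-numbered libraries the same code across gates without explaining it. miR-10a-5p and miR-196a-2-5p were high in both replicate 3 libraries and not in Sublow 1 of that lane. A shared origin was not tested. Depth differed between the lanes, and entries below 0.62 to 2.41 RPM cannot be measured. With 3 libraries a gate, precision is limited by their number.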
